A study of Homo sapiens with 30 samples.

Results

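P-TEFb, the kinase complex that CYC065 targets through its catalytic subunit CDK9, was followed across parental SH-EP cells and 4 MYCN-expressing derivatives through the mRNA levels of 9 genes. The genes were chosen by symbol, as CDK9 and its cyclin partners (CCNT1 and CCNT2), proteins of the 7SK complex (HEXIM1, LARP7, and MEPCE), and members of the super elongation complex (AFF1, AFF4, and ELL2). All 9 were found among the 26228 genes listed, and all 9 were among the 11575 tested, which had a mean of at least 1 FPKM (fragments per kilobase of transcript, scaled to reads mapped) over the 30 libraries. The 10 groups had 3 libraries each. SH-EP cells are an NB line in wide laboratory use that lacks MYCN amplification. The derivatives stably carry a retroviral MYCN transgene under an exogenous promoter, either WT, T58A, S62A, or T58A S62A, where the letters mark an alanine in place of a phosphorylated threonine or serine, so each allele is represented by 1 derivative line. Every line was grown in DMEM with 10% FBS and received either DMSO or 1 μM CYC065, a selective inhibitor of CDK9 and CDK2, for 6 hours. Values listed over several lines follow the order SH-EP, WT MYCN, T58A, S62A, T58A S62A throughout. The labels do not say whether the 3 libraries of a group came from separate cultures, so p values measure the spread between libraries, which may be technical.

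RNA polymerase II pauses soon after it starts on most genes and is released when P-TEFb, a heterodimer of CDK9 and cyclin T1 or cyclin T2, phosphorylates the polymerase and the pausing factors. A large fraction of P-TEFb is kept inactive in a particle built on 7SK RNA, in which HEXIM1 inhibits the kinase, MEPCE caps the 7SK RNA, and LARP7 protects its end. P-TEFb freed from this particle is carried to genes in the super elongation complex, in which AFF1 or AFF4 is the scaffold and ELL2 is an elongation factor that speeds the polymerase.

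The transgene and lineage markers were examined as a check of the line labels. FPKM of MYCN cannot tell its alleles apart, and these markers do not check the treatment labels. MYCN was listed at 0 in all 6 SH-EP libraries, and its DMSO means were 12.9, 8.52, 5.72, and 13.5 FPKM in the 4 MYCN lines. The 6 mesenchymal markers examined were above 0 in all 30 libraries, whereas PHOX2A was listed at 0 in all 30, and DBH and HAND1 in 29 each. TH did not exceed 0.969 FPKM, but GATA3 lay between 1.89 and 9.46 FPKM. Total reads are unknown, and the steps between low values placed DMSO libraries at 0.467 to 1 and CYC065 libraries at 0.291 to 0.551 of the deepest library. No member was listed at 0 in any library. SH-EP libraries carry index sequences that were also used for MYCN-line libraries, so sequencing pool and line cannot be told apart. ERCC spike-ins, synthetic RNAs added by cell number, provided a second scale. As deposited, a value is relative to the bulk of mRNA in its library, whereas spike-in scaled FPKM are relative to the RNA added per cell counted. Spike-in factors differed widely between groups, with group medians from 1.70 (SH-EP in DMSO) to -1.76 (S62A with CYC065) on the log2 scale. On this scale, less RNA per cell and an error in counting cells or adding spike-ins, shared by a whole library, cannot be told apart.

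RefSeq promoters were matched for 8 of the 9 genes, all but ELL2. They comprised 13 windows of 250 bases upstream of an annotated start on GRCh38.p14, since some genes have several starts. The canonical E-box CACGTG, the letters bound by Myc proteins and other bHLH factors, was searched on both strands, to which it reads alike. It was present in 3 of the 13 windows and in 6.34% of 35116 windows of the same length from all genes. The windows with an E-box belonged to the upstream start of CCNT1 (chr12:48716708-48716957, minus strand, first base at -234 from the start), the second start of MEPCE (chr7:100429197-100429446, plus strand, -124), and AFF4 (chr5:132963635-132963884, minus strand, -54). They are shown 5′ to 3′ with the E-box in capitals, followed by HEXIM1 (chr17:45148225-45148474, plus strand) and CCNT2 (chr2:134918572-134918821, plus strand), 2 genes with contrasting responses to CYC065 and no match in the window.
CCNT1: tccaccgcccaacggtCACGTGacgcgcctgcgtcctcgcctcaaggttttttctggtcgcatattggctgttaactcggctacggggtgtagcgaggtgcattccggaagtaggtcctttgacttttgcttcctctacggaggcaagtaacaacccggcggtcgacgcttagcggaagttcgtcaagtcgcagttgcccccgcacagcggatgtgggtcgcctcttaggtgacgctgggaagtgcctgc
MEPCE: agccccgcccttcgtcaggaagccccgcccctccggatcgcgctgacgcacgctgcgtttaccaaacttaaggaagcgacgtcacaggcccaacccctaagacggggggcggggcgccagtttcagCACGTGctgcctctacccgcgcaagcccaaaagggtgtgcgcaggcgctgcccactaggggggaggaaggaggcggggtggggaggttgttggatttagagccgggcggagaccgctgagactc
AFF4: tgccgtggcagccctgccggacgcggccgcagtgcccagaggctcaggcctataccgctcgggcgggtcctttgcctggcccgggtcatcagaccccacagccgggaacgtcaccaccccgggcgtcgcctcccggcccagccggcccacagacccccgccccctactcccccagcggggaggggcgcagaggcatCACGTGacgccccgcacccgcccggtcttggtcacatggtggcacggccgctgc
HEXIM1: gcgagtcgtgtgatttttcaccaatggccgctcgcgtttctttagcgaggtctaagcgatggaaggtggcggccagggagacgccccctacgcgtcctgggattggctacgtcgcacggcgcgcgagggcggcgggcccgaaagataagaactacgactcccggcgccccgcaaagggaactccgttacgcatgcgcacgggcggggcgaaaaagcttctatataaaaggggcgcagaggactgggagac
CCNT2: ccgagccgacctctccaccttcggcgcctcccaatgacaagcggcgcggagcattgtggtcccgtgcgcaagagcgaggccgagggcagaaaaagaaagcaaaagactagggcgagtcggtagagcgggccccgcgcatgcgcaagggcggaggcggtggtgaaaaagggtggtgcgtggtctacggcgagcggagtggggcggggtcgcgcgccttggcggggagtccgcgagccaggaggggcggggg
The GC content of these 5 windows was 59.2%, 66.8%, 75.2%, 62.4%, and 69.6%, against a median of 58% over all promoters. The HEXIM1 window held 1 match to TATAAA, which was found in 10.7% of all windows, and 2 matches to CCAAT, which was found in 32% of them, with both motifs searched on both strands.

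In DMSO, MEPCE was the most abundant of the 9 mRNAs by FPKM, with group means from 46.6 to 61.2, and AFF1 the least abundant, with libraries from 1.83 to 3.74 FPKM. LARP7 lay between 23.0 and 37.3 FPKM and CDK9 between 16.9 and 23.5. The other 5 were of intermediate level, with DMSO libraries from 10.2 to 15.3 FPKM for CCNT1, 4.68 to 7.72 for CCNT2, 8.74 to 14.8 for HEXIM1, 10.5 to 17.2 for AFF4, and 12.8 to 16.7 for ELL2. Of the alternative cyclins, CCNT1 was the more abundant mRNA in every DMSO library, as was AFF4 of the alternative scaffolds.

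**Figure D1:**
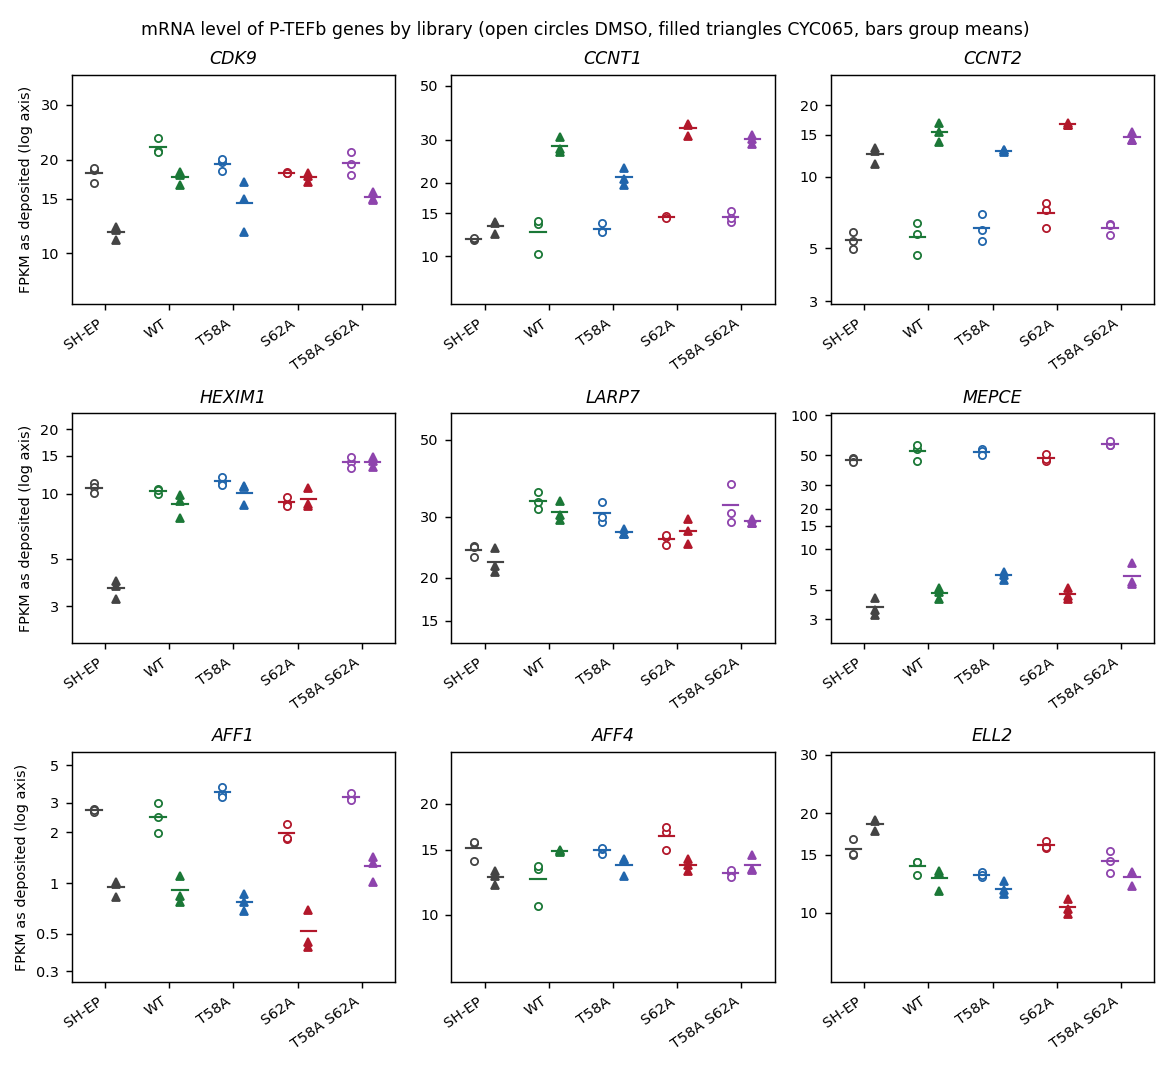
FPKM as deposited (log axis, scaled separately in each panel) of the 9 genes in each library of the 5 lines. Open circles are DMSO, filled triangles CYC065, and bars group means of 3 libraries. MEPCE and AFF1 triangles lie below all circles in every line, and CCNT2 triangles lie above all circles. HEXIM1 triangles lie far below the circles in SH-EP, narrowly below them in WT and T58A, and among them in S62A and T58A S62A.

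The first comparison addressed whether expression of MYCN or its mutants accompanied a different level of P-TEFb components in untreated cells. As deposited, changes were small, none exceeding 0.47 in either direction on the log2 scale. The genes past the threshold (limma, Benjamini-Hochberg adjusted p under 0.05) numbered 4, 2, 3, and 5 of 9 in the 4 MYCN lines, where 54.2%, 54.2%, 54.3%, and 55.3% of all tested genes were past it. The members' median log2 difference was 0.05, 0.14, 0.04, and 0.25, against 0.07, 0.05, 0.06, and 0.06 for all tested genes. With spike-in scaling the order of the lines turned, since the median of all tested genes was then -1.18, -0.89, -1.88, and -0.76, and 9, 9, 9, and 7 of the 9 genes were lower than in SH-EP (background 89.7%, 79.9%, 95.5%, and 72.4% in either direction and 88.7%, 78%, 95.1%, and 70.2% lower). The differences below are therefore relative to the bulk of mRNA, and each line of MYCN cells is compared with the same 3 SH-EP libraries.

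LARP7 (ENSG00000174720.18; GRCh37 chromosome 4, 113558233 to 113578852, plus strand), the 7SK end-binding protein, was higher in 3 of the 4 MYCN lines as deposited. With spike-in scaling the sign turned, at -0.79, -0.61, -1.86, and -0.42 in the 4 MYCN lines, with the last not past the threshold (adjusted p = 0.0515). Its DMSO levels were 24.6, 24.5, and 23 FPKM in SH-EP and 31.7, 35.5, and 33.1 FPKM in the WT line, without overlap. They were 33.2, 29, and 29.9 FPKM in T58A, 26.2, 24.8, and 26.6 in S62A, and 30.8, 37.3, and 29 in T58A S62A. By limma, the log2 difference from SH-EP was 0.47 (SE 0.08, adjusted p = 2.04e-05) in WT, 0.35 (adjusted p = 0.00064) in T58A, and it was 0.42 (adjusted p = 8.23e-05) in T58A S62A. In S62A it was 0.11 (adjusted p = 0.271). In the annotation, 16.3% of LARP7 exon bases are shared with MIR302CHG on the opposite strand. The methods state strand-specific counting, but the labels name a kit without strand selection, and the part of this overlap was not tested.

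HEXIM1 (ENSG00000186834.4; chromosome 17, 43225842 to 43229466, plus strand), the kinase inhibitor, and MEPCE (ENSG00000146834.15; chromosome 7, 100025945 to 100031749, plus strand), the 7SK capping enzyme, were higher than in SH-EP only in T58A S62A among the differences that passed the test, and on the spike-in scale both values there were negative (-0.45 and -0.45, adjusted p = 0.0223 and 0.0653). In the annotation, 14.3% of HEXIM1 exon bases are shared with HEXIM2-AS1 on the opposite strand. HEXIM1 stood at 11.2, 10.7, and 10.1 FPKM in SH-EP and at 14.1, 13.2, and 14.8 in T58A S62A, which lay above all other DMSO libraries. The as-deposited difference was 0.39 (SE 0.1, adjusted p = 0.00134, limma). MEPCE stood at 47.8, 47.1, and 45 FPKM in SH-EP and 59.4, 60.0, and 64.3 in T58A S62A, a difference of 0.39 (adjusted p = 0.00768). In the WT line, MEPCE spanned 45.5 to 60.4 FPKM and overlapped the SH-EP range, and its difference of 0.2 (adjusted p = 0.168) passed the threshold, at 0.32, only without library c, the lowest of that group. The letters a, b, and c name the libraries of a group and carry no order.

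Of the kinase and cyclins, CDK9 (ENSG00000136807.14; chromosome 9, 130547958 to 130553071, plus strand) was higher in the WT line, at 21.3, 23.5, and 21.2 FPKM against 16.9, 18.6, and 18.8 in SH-EP, a log2 difference of 0.28 (adjusted p = 0.0101, limma) that was -0.98 with spike-in scaling. The call was lost at 0.23 without SH-EP library a and at 0.23 without WT library b. In the other MYCN lines the difference was 0.1, 0.01, and 0.1 (adjusted p = 0.366, 0.961, and 0.345). CCNT1 (ENSG00000129315.12; chromosome 12, 49082241 to 49110781, minus strand) was tightly grouped in SH-EP at 11.6, 11.7, and 11.8 FPKM and higher in S62A, at 14.4, 14.6, and 14.4, and in T58A S62A, at 13.8, 15.3, and 14.3. Both differences were 0.3 as deposited (adjusted p = 0.00537 and 0.00578) and turned to -1.66 and -0.54 with spike-in scaling. In WT, where library b was the lowest of all DMSO libraries at 10.2 FPKM, the difference was 0.08 (adjusted p = 0.447), and without that library it passed the threshold at 0.23. CCNT2 (ENSG00000082258.13; chromosome 2, 135675805 to 135716912, plus strand) was higher in S62A, at 7.28, 7.72, and 6.1 FPKM against 5.83, 5.39, and 4.96 in SH-EP, a difference of 0.37 (adjusted p = 0.00462) that became -1.57 on the spike-in scale.

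All 5 calls among the super elongation complex genes were lower values as deposited, where 22.6%, 23.3%, 23.4%, and 24.1% of all tested genes were called lower in the 4 MYCN lines. AFF4 (ENSG00000072364.13; chromosome 5, 132211087 to 132299326, minus strand) was at 14, 15.6, and 15.8 FPKM in SH-EP, 13.3, 10.5, and 13.6 in the WT line, and 13, 13.2, and 12.6 in T58A S62A. It was lower by limma in WT and T58A S62A (-0.29 and -0.22, adjusted p = 0.00266 and 0.0151), but the first call was lost in a fit of only the groups compared (adjusted p = 0.08) and the second without SH-EP library b (-0.2) or c (-0.19). ELL2 (ENSG00000118985.16; chromosome 5, 95220802 to 95297555, minus strand) was at 15, 15.1, and 16.7 FPKM in SH-EP and lower in T58A, at 12.8, 13.3, and 13.1, without overlap (-0.25, adjusted p = 0.00228). In WT, at 14.2, 13, and 14.3 FPKM, it was also lower (-0.17, adjusted p = 0.0309), a call that was lost without SH-EP library c (-0.12), without WT library b (-0.13), and in a fit of only these groups (adjusted p = 0.0731). In T58A S62A the difference was -0.12, past the threshold only without T58A S62A library b (-0.17). AFF1 (ENSG00000172493.23; chromosome 4, 87856154 to 88062191, plus strand) was lower in S62A, at 1.83, 1.86, and 2.24 FPKM against 2.74, 2.65, and 2.73 in SH-EP (-0.44, SE 0.18, adjusted p = 0.0401). The 2 groups did not overlap, but the call was lost without any 1 of the 3 SH-EP libraries (-0.43, -0.45, and -0.43), without S62A library a (-0.39) or b (-0.4), and with no filter on low genes (adjusted p = 0.0593).

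Phosphorylation-site mutants were next compared with WT MYCN in DMSO, all against the same 3 WT libraries. As deposited, 1, 5, and 1 of the 9 genes were past the threshold in T58A, S62A, and T58A S62A, where the share of all tested genes was 23.6%, 24.1%, and 23.7%. The members' median differences were 0.06, -0.16, and 0.13, against -0.02, -0.02, and -0.02 for all tested genes. Spike-in scaling shifted the latter to 0.28, -0.71, and 0.4 and left 1, 7, and 4 genes past the threshold (background 8.54%, 75.1%, and 24.3%). The 7 genes in S62A were all lower than in WT, with log2 differences of -1.06 to -0.48, all but AFF4 and CCNT2. In T58A S62A, CCNT1 (0.64), HEXIM1 (0.86), MEPCE (0.62), and AFF1 (0.82) were higher than in WT, and in T58A AFF1 was higher (0.78).

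HEXIM1 was higher with T58A S62A MYCN than with WT on both scales, with 14.1, 13.2, and 14.8 FPKM against 9.97, 10.5, and 10.4 and no overlap (0.44, SE 0.1, adjusted p = 0.00145 by limma as deposited, and 0.86, adjusted p = 0.00155 with spike-in scaling). The single mutants were at 11.3, 12, and 11 FPKM (T58A) and 9.1, 8.74, and 9.71 FPKM (S62A), with as-deposited differences of 0.15 and -0.17 (adjusted p = 0.29 and 0.229). LARP7 was lower with S62A than with WT MYCN on both scales (-0.37, adjusted p = 0.00142 as deposited, and -1.06, adjusted p = 0.000116), as was CDK9 (-0.27, adjusted p = 0.0266, and -0.97, adjusted p = 0.000333). With spike-in scaling, 74.9% of all tested genes were called lower in S62A, with a median of -0.71, a shift that these spike-in values include. For CDK9, the as-deposited call was lost without WT library b (-0.23) or any 1 of S62A libraries a, b, and c (-0.27, -0.28, and -0.27), although its S62A libraries, at 18.1, 18.3, and 18.1 FPKM, all lay below the WT libraries.

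AFF4, CCNT2, and ELL2 were higher with S62A than with WT MYCN as deposited (0.39, 0.33, and 0.21; adjusted p = 0.000469, 0.026, and 0.0199), but with spike-in scaling the values were -0.3, -0.36, and -0.48, of which that of ELL2 passed (adjusted p = 0.0194). All 3 as-deposited calls were lost in a fit of only the groups compared (adjusted p = 0.0842, 0.202, and 0.067). That of CCNT2 was also lost without WT library b (0.2) or S62A library a (0.3) or b (0.26), and that of ELL2 without WT library b (0.17) or S62A library a (0.19). AFF4 was higher with T58A as well (0.27, adjusted p = 0.0107), a call that rested on WT library b, at 10.5 FPKM the lowest of the DMSO libraries, without which it was 0.16. Without WT library a or c, CCNT1 passed the threshold in S62A (0.28 and 0.3) and in T58A S62A (0.28 and 0.3), and AFF1 in T58A without library c (0.62).

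CYC065 was then compared with DMSO in each line, to ask how the mRNAs of the targeted kinase complex responded to its inhibitor. With spike-in scaling, 8, 8, 8, 7, and 7 of the 9 genes were lower and none was higher in the 5 lines. Of all tested genes, 77.2%, 94.5%, 85.8%, 91.2%, and 78.3% were past the threshold in either direction, so the count of genes called is near the background. The median of all tested genes fell to -1.08, -1.58, -1.09, -1.35, and -0.98 on the log2 scale, against -1.52, -1.8, -1.37, -1.53, and -1.23 for the 9 genes. The 9 genes were spread widely among themselves, from MEPCE, which had 2.87% to 5.32% of its DMSO level left, to CCNT2, for which none of the 5 changes was past the threshold. Relative to the bulk of mRNA, as deposited, 7, 6, 6, 6, and 6 of the 9 genes were past the threshold (background 76.3%, 71.2%, 71.4%, 73.4%, and 72.8%). Of these, 5, 3, 4, 4, and 4 were lower (background 33.5%, 34.2%, 33.3%, 34.6%, and 34.2%) and 2, 3, 2, 2, and 2 higher (background 42.7%, 37%, 38.1%, 38.8%, and 38.6%). The median of all tested genes on that scale was 0.15, 0.06, 0.07, 0.07, and 0.07. The CYC065 libraries were also the shallower ones in part (relative depths above), and the part of depth in these differences was not tested.

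**Figure D2:**
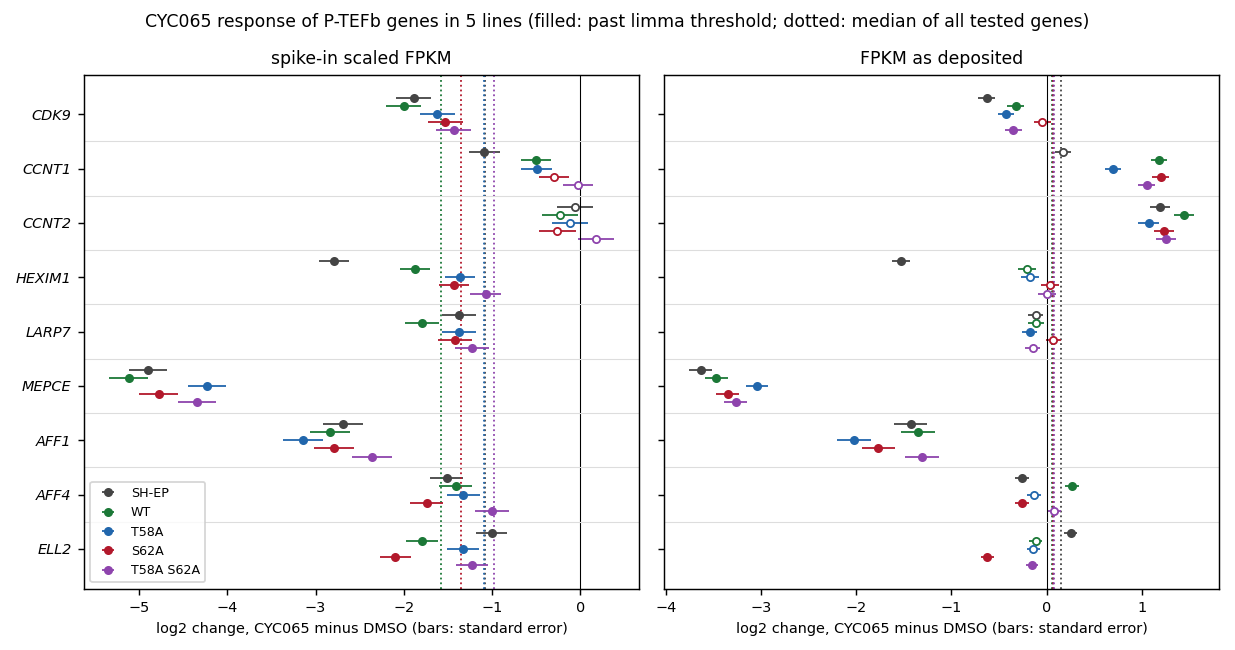
Log2 change of each gene with CYC065 (CYC065 minus DMSO) in the 5 lines, on spike-in scaled FPKM (left) and on FPKM as deposited (right). Points are limma estimates from 3 libraries per group with standard errors, filled where the adjusted p is under 0.05, and dotted lines mark the median of all tested genes in each line. MEPCE lies farthest to the left in every line, CCNT2 lies around 0 on the left panel and above 1 on the right, and HEXIM1 in SH-EP lies apart from HEXIM1 in the other lines.

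MEPCE had the largest decrease of the 9 genes in every line on both scales. In SH-EP it went from 47.8, 47.1, and 45 FPKM in DMSO to 4.3, 3.55, and 3.22 with CYC065. The WT line went from 55.9, 60.4, and 45.5 FPKM to 4.27, 5.17, and 4.8. T58A went from 56.3, 53.8, and 50.1 FPKM to 6.83, 5.94, and 6.41. The highest CYC065 library of any line was at 7.86 FPKM and the lowest DMSO library at 45.0 FPKM, so the treatments did not overlap. In S62A the levels were 45.7, 47.1, and 51.3 FPKM in DMSO and 5.18, 4.46, and 4.27 with CYC065, and in T58A S62A they were 59.4, 60.0, and 64.3 and 5.5, 5.71, and 7.86. On the spike-in scale the mean fell from 149.9 ± 7.47 to 5 ± 1.18 (SD, n = 3) in SH-EP, and the log2 changes were -4.9, -5.12, -4.23, -4.78, and -4.35 in the 5 lines (SE 0.22 each, adjusted p from 5.8e-16 to 2.7e-14, limma). As deposited they were -3.63, -3.47, -3.04, -3.35, and -3.27, which placed MEPCE among the lowest 0.907% of all tested genes or lower in each line. In the annotation used here for positions, 61.3% of MEPCE exon bases are shared with ENSG00000289690, a protein-coding model on the same strand. Whether the annotation behind the deposited FPKM held that model is not known, and its part in the MEPCE values was not tested.

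The other 7SK proteins fell less, and HEXIM1 differed between lines. HEXIM1 dropped in SH-EP from 11.2, 10.7, and 10.1 FPKM to 3.74, 3.26, and 3.96, the lowest levels of any group. In WT it was at 9.97, 10.5, and 10.4 FPKM in DMSO and 9.26, 7.72, and 9.91 with CYC065, and in T58A at 11.3, 12, and 11 and 8.85, 10.8, and 10.7. In S62A it was at 9.1, 8.74, and 9.71 and 8.76, 10.7, and 8.94, and in T58A S62A at 14.1, 13.2, and 14.8 and 14.8, 13.3, and 14.1. Treated and untreated libraries thus did not overlap in SH-EP, WT, or T58A and overlapped in S62A and T58A S62A, and every CYC065 library of a MYCN line lay above every CYC065 library of SH-EP. As deposited, the log2 change was -1.52 (SE 0.1, adjusted p = 7.1e-13, limma) in SH-EP, whereas the MYCN lines had -0.21, -0.18, 0.04, and 0.01 (adjusted p = 0.0571, 0.1, 0.733, and 0.952). With spike-in scaling HEXIM1 was lower in all 5 lines, at -2.79, -1.87, -1.37, -1.43, and -1.07. The spike-in scaled mean went from 34.3 ± 2.42 to 4.88 ± 0.387 in SH-EP and from 25.2 ± 2.83 to 11.9 ± 1.44 in T58A S62A (SD, n = 3). LARP7 changed by -1.38, -1.8, -1.37, -1.42, and -1.23 with spike-in scaling (adjusted p of at most 2.46e-06, limma), each lower than the all-gene median of its line. As deposited it changed by -0.18 to 0.07, past the threshold only in T58A (adjusted p = 0.0485). Its libraries spanned 23.0 to 37.3 FPKM in DMSO and 20.7 to 33.2 with CYC065. By group mean as deposited, HEXIM1 was highest in the 2 T58A S62A groups (14.1 with CYC065 and 14 FPKM in DMSO), which overlapped each other and no other group. It was lowest in SH-EP with CYC065 (3.65 FPKM), and the 7 groups between, from 8.96 to 11.4 FPKM, each overlapped their neighbours in the order.

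Of the P-TEFb subunits, on the spike-in scale, the kinase CDK9 fell in all 5 lines, CCNT1 in 3, and CCNT2 in none. CDK9 was at 16.9, 18.6, and 18.8 FPKM in SH-EP with DMSO and 11.9, 12.1, and 11 with CYC065. In WT it went from 21.3, 23.5, and 21.2 FPKM to 17.9, 18.2, and 16.5, and in T58A from 19.6, 18.4, and 20.1 to 14.9, 17, and 11.7. Neither these 3 lines nor T58A S62A, with 19.4, 17.8, and 21.2 FPKM in DMSO and 15.8, 15, and 14.8 with CYC065, had overlapping treatments. S62A was at 18.1, 18.3, and 18.1 FPKM in DMSO and 17.8, 17, and 18.1 with CYC065. It changed by -1.89, -2, -1.62, -1.53, and -1.43 in the 5 lines on the spike-in scale (SE 0.2 each, adjusted p of at most 4.23e-07, limma). As deposited the changes were -0.63, -0.32, -0.43, -0.04, and -0.35, all past the threshold except that in S62A (adjusted p = 0.685), the line whose treated and untreated libraries overlapped.

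CCNT2, which encodes cyclin T2, was higher with CYC065 in every line as deposited. Levels went from 5.83, 5.39, and 4.96 FPKM to 12.8, 13.2, and 11.3 in SH-EP and from 5.76, 4.68, and 6.38 to 16.8, 13.9, and 15.3 in WT. In T58A they went from 5.95, 5.38, and 6.96 to 12.7, 12.9, and 13, in S62A from 7.28, 7.72, and 6.1 to 16.7, 16.4, and 16.6, and in T58A S62A from 6.32, 6.29, and 5.71 to 14.3, 14.3, and 15.4. All treated libraries, at 11.3 FPKM or more, lay above all DMSO libraries, which did not exceed 7.72. The as-deposited changes were 1.19, 1.45, 1.07, 1.23, and 1.25 (SE 0.11 each, adjusted p of at most 3.67e-09), between the 96.2 and 97.5 percentiles of all tested genes. With spike-in scaling, where most mRNAs were lower, the changes were -0.06, -0.23, -0.11, -0.26, and 0.18, and none passed the threshold (adjusted p = 0.796, 0.288, 0.604, 0.234, and 0.423). The 95% intervals ran from -0.68 at the lowest to 0.6 at the highest, and each lay above the all-gene median of its line.

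CCNT1, which encodes cyclin T1, was higher with CYC065 in the 4 MYCN lines as deposited. It went from 13.6, 10.2, and 13.9 FPKM to 30.8, 26.7, and 27.6 in WT and from 12.7, 13.7, and 12.5 to 23, 20.7, and 19.6 in T58A. In S62A it went from 14.4, 14.6, and 14.4 to 31.1, 34.4, and 34.8, and in T58A S62A from 13.8, 15.3, and 14.3 to 30.2, 31.4, and 28.7. In SH-EP it was at 11.6, 11.7, and 11.8 FPKM in DMSO and 12.3, 13.6, and 13.8 with CYC065. Treated libraries lay above untreated ones in all 5 lines, by the least in SH-EP. The as-deposited changes were 0.17, 1.18, 0.7, 1.2, and 1.05 in the 5 lines (adjusted p = 0.0795, 3.08e-11, 1.84e-07, 1.69e-11, and 1.92e-10). With spike-in scaling the sign turned, and CCNT1 was lower in SH-EP (-1.09, adjusted p = 2.88e-06), WT (-0.5, adjusted p = 0.008), and T58A (-0.5, adjusted p = 0.0106), while the changes of -0.3 in S62A and -0.03 in T58A S62A did not pass (adjusted p = 0.103 and 0.896). The T58A call was lost without T58A DMSO library b (-0.34) or c (-0.41), with the 21 spike-ins of at least 50 FPKM (-0.33), and in a fit of only these groups (adjusted p = 0.103). The WT call was lost without WT CYC065 library c (-0.38), and S62A passed with those spike-ins (-0.6).

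Among super elongation complex genes, the scaffold AFF1 fell on both scales in every line. It went from 2.74, 2.65, and 2.73 FPKM to 0.986, 0.829, and 1.02 in SH-EP and from 2.47, 1.98, and 2.98 to 1.1, 0.775, and 0.845 in WT. In T58A it went from 3.39, 3.74, and 3.23 to 0.869, 0.681, and 0.775, in S62A from 1.83, 1.86, and 2.24 to 0.69, 0.45, and 0.418, and in T58A S62A from 3.2, 3.41, and 3.12 to 1.44, 1.02, and 1.32. No treated library reached the lowest DMSO library, at 1.83 FPKM. The changes were -2.69, -2.83, -3.15, -2.79, and -2.36 with spike-in scaling (SE 0.23 each, adjusted p of at most 8.31e-10) and -1.43, -1.35, -2.03, -1.77, and -1.31 as deposited. At these low levels the added 0.1 FPKM makes the log2 changes understate the decrease. The spike-in scaled mean with CYC065 was lowest in S62A, at 0.152.

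AFF4, the alternative scaffold, moved much less. Its libraries spanned 10.5 to 17.2 FPKM in DMSO and 12.1 to 15 with CYC065. It changed by -1.52, -1.41, -1.32, -1.74, and -1 with spike-in scaling (adjusted p of at most 3.4e-05, limma), against all-gene medians of -1.08, -1.58, -1.09, -1.35, and -0.98. As deposited it changed by -0.26, 0.27, -0.13, -0.26, and 0.08, and was lower in SH-EP and S62A and higher in WT. ELL2 was higher as deposited in SH-EP, from 15, 15.1, and 16.7 FPKM to 19.1, 17.7, and 19 (0.25, adjusted p = 0.00129). In S62A it was lower, from 16.4, 15.8, and 15.9 to 10.3, 9.94, and 11 (-0.62, adjusted p = 1.04e-08). Neither pair overlapped. In WT, T58A, and T58A S62A the as-deposited changes were -0.12, -0.14, and -0.15, of which the last was past the threshold (adjusted p = 0.043). With spike-in scaling ELL2 was lower in all 5 lines, at -1, -1.79, -1.33, -2.1, and -1.23 (adjusted p of at most 1.58e-05).

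**Figure D3:**
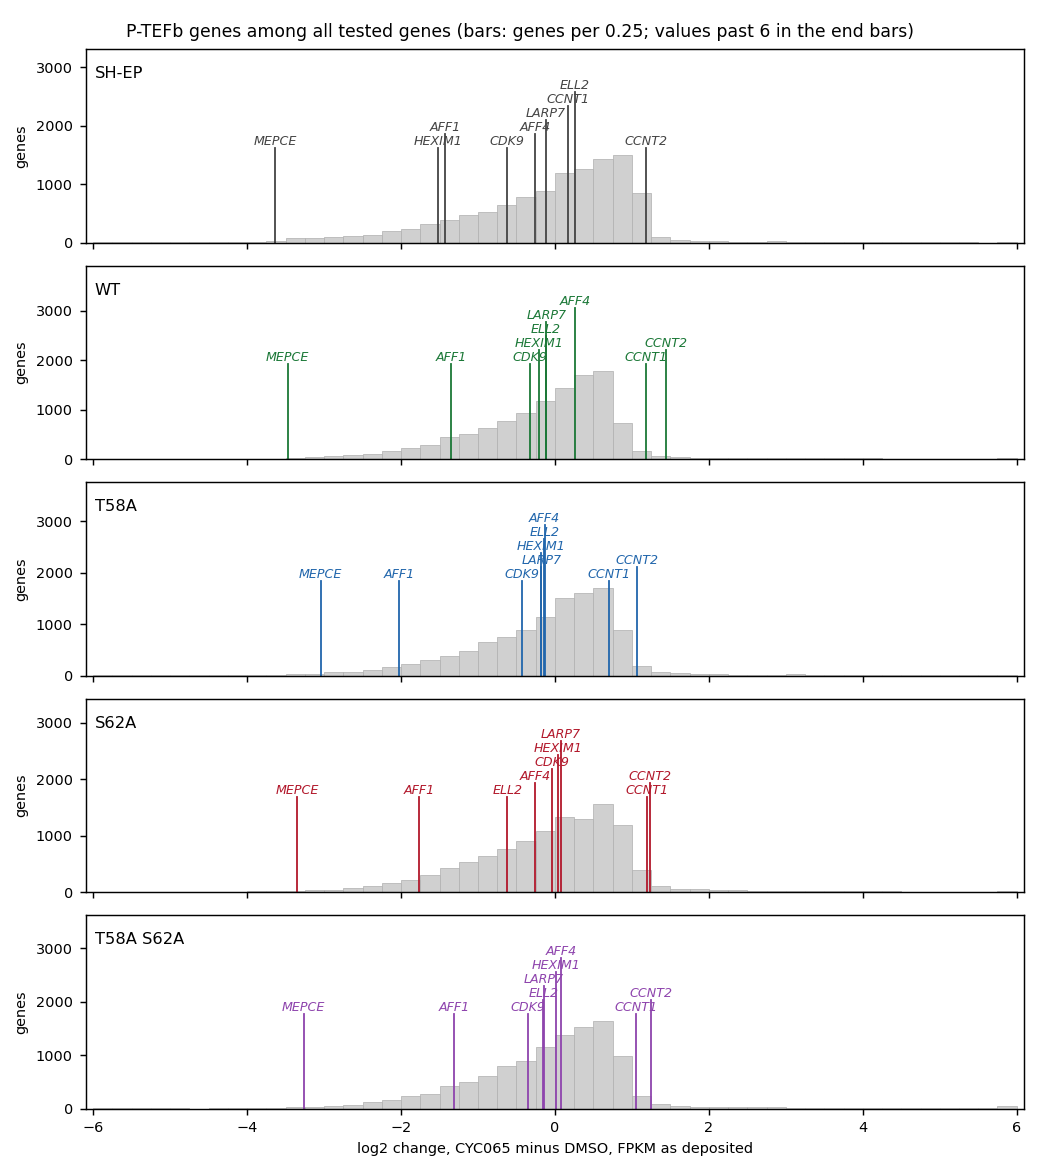
Number of tested genes (grey bars, 0.25 log2 units wide, 11575 genes per line) by their log2 change with CYC065 on FPKM as deposited, with the 9 genes marked by labelled lines. MEPCE sits in the left tail and CCNT2 at the right edge in every line. AFF1 lies on the left side, between the 4.16 and 12.6 percentiles of all tested genes across the lines. CCNT1 lies near CCNT2 in WT, S62A, and T58A S62A but inside the bulk in T58A, at 0.7. The other genes sit inside the bulk, apart from HEXIM1 in SH-EP.

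Whether the response to CYC065 differed between MYCN lines and SH-EP was tested by the interaction term, with the same 6 SH-EP libraries in each of the 4 comparisons. With spike-in scaling, 2, 1, 2, and 2 of the 9 genes were past the threshold in the 4 MYCN lines, against 16%, 2.66%, 4.83%, and 5.46% of all tested genes. As deposited there were 4 in each line, against 28.6%, 23.9%, 24.6%, and 25.4%, of which 3 were higher (background 10.4%, 9.9%, 10.9%, and 10.6%) and 1 was lower (background 18.1%, 14%, 13.7%, and 14.8%). The median interaction of all tested genes was -0.51, -0.01, -0.28, and 0.08 on the spike-in scale, compared with -0.12, -0.08, -0.08, and -0.1 as deposited.

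HEXIM1 differed in all 4 MYCN lines, falling less than in SH-EP by 0.92, 1.42, 1.36, and 1.72 log2 units with spike-in scaling (SE 0.24 each, adjusted p = 0.0294, 0.00131, 0.000933, and 3.66e-05, limma). As deposited the interaction was 1.32, 1.35, 1.56, and 1.53 (SE 0.13 each, adjusted p of at most 2.18e-07). HEXIM1 was between the 96.5 and 97.2 percentiles of all tested genes on that scale. On the spike-in scale, the WT call was lost without 1 library in 7 of 12 cases, namely SH-EP DMSO library a, b, or c (0.86, 0.94, and 0.95), SH-EP CYC065 library a or b (0.98 and 0.89), and WT CYC065 library a or c (0.88 and 0.94). With the 21 spike-ins of at least 50 FPKM the WT and S62A calls were lost (0.82 and 1.02, adjusted p = 0.148 and 0.115), and the T58A call was lost in a fit of only those groups (adjusted p = 0.0674).

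ELL2 fell more in WT and S62A than in SH-EP, with interactions of -0.78 and -1.09 (adjusted p = 0.0418 and 0.01), and in T58A and T58A S62A they were -0.32 and -0.23 (adjusted p = 0.754 and 0.871). As deposited it was past the threshold in all 4 lines (-0.37, -0.39, -0.88, and -0.41). The WT call with spike-in scaling was lost in 9 of 12 leave-one-out fits, at -0.84 to -0.68 (SH-EP DMSO library a, b, or c, SH-EP CYC065 library a or b, WT DMSO library b or c, and WT CYC065 library a or c), with a pseudocount of 1 (-0.65), with no filter (-0.78), and with the 21 spike-ins (-0.89). CCNT1 was kept more in T58A S62A than in SH-EP with spike-in scaling (1.06, adjusted p = 0.00712), a call lost with the 21 spike-ins (adjusted p = 0.384). In WT, T58A, and S62A the interaction of CCNT1 was 0.58, 0.59, and 0.79 (adjusted p = 0.0796, 0.274, and 0.0621), and as deposited it was past the threshold in all 4 lines (1.01, 0.53, 1.03, and 0.88). MEPCE, with interactions of -0.22, 0.67, 0.12, and 0.56, and CCNT2, with -0.17, -0.05, -0.2, and 0.24, did not pass with spike-in scaling, with standard errors of 0.31 and 0.29. As deposited, the interaction of MEPCE was 0.16, 0.59, 0.28, and 0.37 and passed in T58A (adjusted p = 0.0135). The other calls as deposited were AFF4 in WT (0.52, adjusted p = 0.000951) and T58A S62A (0.34, adjusted p = 0.0238), and CDK9 in S62A (0.58, adjusted p = 0.00124). With spike-in scaling these 3 were 0.11, 0.52, and 0.36 (adjusted p = 0.774, 0.399, and 0.448).

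In a ratio of 2 genes within a library the scaling cancels, apart from the effect of the added 0.1 FPKM, and 4 ratios were tested by an exact two-sided permutation of treatment within lines (3200000 arrangements, smallest possible p 6.25e-07, p values adjusted over the 4). The CCNT1 to CDK9 ratio was higher with CYC065 in all 5 lines, by 1.22 log2 units on average (exact p = 6.25e-07, the smallest possible, adjusted p = 1.25e-06). In SH-EP the log2 ratio went from -0.54, -0.66, and -0.66 to 0.04, 0.17, and 0.33, and in T58A S62A from -0.49, -0.22, and -0.56 to 0.93, 1.06, and 0.95. Every DMSO library thus held more CDK9 than CCNT1 mRNA by FPKM, and every CYC065 library the reverse. The AFF1 to AFF4 ratio was lower in all 5 lines, with changes of -1.17, -1.61, -1.89, -1.51, and -1.39 and a mean change of -1.52 (exact p = 6.25e-07, the smallest possible, adjusted p = 1.25e-06). AFF1 is low enough for the added value to matter, and without it the changes were -1.27, -1.71, -2.03, -1.7, and -1.46.

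The CCNT1 to CCNT2 ratio was lower with CYC065, with a mean change of -0.38 (exact p = 6.38e-05, adjusted p = 8.5e-05). The change was -1.02 in SH-EP, where the linear ratio went from 2.16 to 1.06, and -0.26, -0.37, -0.03, and -0.2 in the MYCN lines. The HEXIM1 to CDK9 ratio changed by -0.9 in SH-EP, from -0.59, -0.78, and -0.89 in DMSO to -1.65, -1.86, and -1.45 with CYC065, and by 0.12, 0.25, 0.08, and 0.36 in the MYCN lines, so that the mean over 5 lines was -0.02 (exact p = 0.866, adjusted p = 0.866). The mean thus joined lines with opposite signs.

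**Figure D4:**
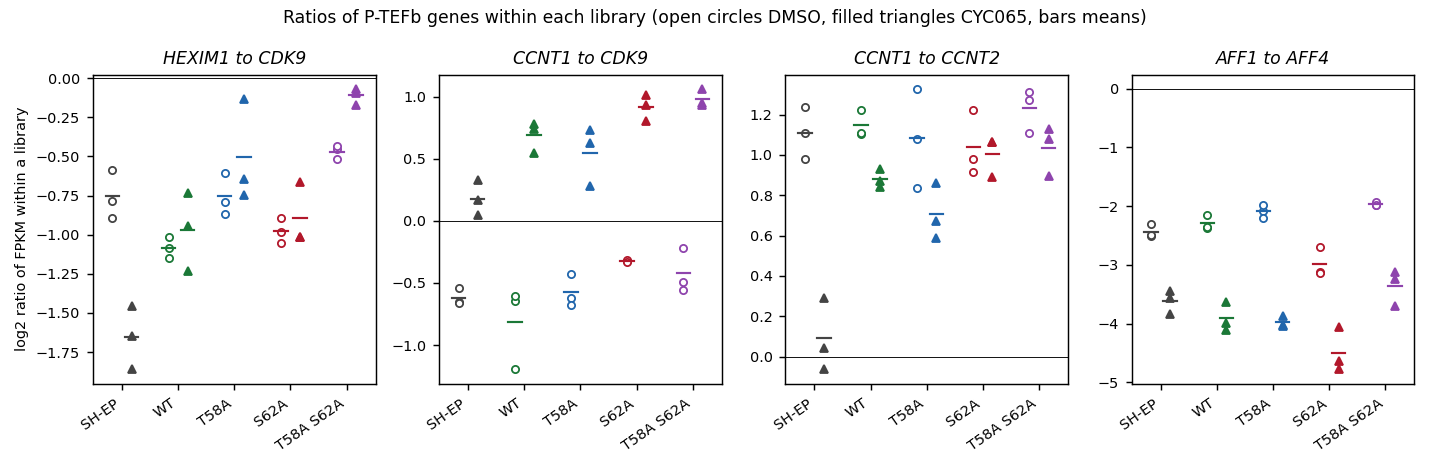
Log2 ratio of FPKM between 2 genes of the same library for the 4 pairs tested, by line. Open circles are DMSO, filled triangles CYC065, bars means of 3 libraries, and the horizontal line marks equal FPKM. CCNT1 to CDK9 triangles lie above the line and circles below it in every line, and the HEXIM1 to CDK9 triangles lie below the circles in SH-EP but not in the MYCN lines.

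Other genes of transcription elongation were described from 5 fixed lists with 45 genes, all listed and 43 tested. As deposited in DMSO, 26, 21, 26, and 25 of the 43 were higher and 3, 6, 4, and 4 lower than SH-EP in the 4 MYCN lines, with a background of 31.6%, 30.9%, 31%, and 31.2% higher and 22.6%, 23.3%, 23.4%, and 24.1% lower, whereas with spike-in scaling 41, 35, 42, and 32 were lower and none higher (background 88.7%, 78%, 95.1%, and 70.2% lower). The BET reader BRD3 (0.75, 0.9, 0.63, and 0.65), the YEATS reader MLLT1 of the super elongation complex (0.64, 0.72, 0.59, and 0.8), and ZC3H8, a partner of the little elongation complex (0.58, 0.69, 0.73, and 0.63), had the largest consistent as-deposited increases. AFF3, a scaffold related to AFF4, was the only gene of the 43 lower in all 4 lines as deposited (-1.88, -2.06, -2.63, and -2.72), and it was lower with spike-in scaling as well (-3.16, -3.04, -4.56, and -3.62). Against WT MYCN, 1, 5, and 2 were higher and 9, 6, and 8 lower in T58A, S62A, and T58A S62A as deposited (background 10.7%, 10.1%, and 9.43% higher and 13%, 14%, and 14.2% lower).

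With CYC065 and spike-in scaling, 37, 42, 37, 39, and 34 of the 43 were lower and 0, 0, 0, 0, and 1 higher in the 5 lines, and 33 were lower in all 5 lines (background lower, 76.3%, 93.7%, 84.5%, 90.2%, and 76.4%). The largest consistent decreases were those of IWS1, which binds SPT6 (-4.04, -3.54, -2.87, -3.73, and -3.27), HEXIM2, the paralog of HEXIM1 (-4.69, -3.79, -3.09, -2.63, and -3.3), and NELFA, a subunit of the pausing factor NELF (-3.06, -3.56, -2.5, -2.71, and -2.78). All 3 also fell as deposited. HEXIM2 had means of 2.53 FPKM in DMSO and 0.459 FPKM with CYC065 over all lines. Relative to the bulk of mRNA, ELL, the paralog of ELL2, was higher in all 5 lines (1.69, 1.14, 1.04, 1.24, and 1.21), as was its partner EAF1 (0.99, 1.66, 1.54, 1.59, and 1.66). As deposited, 22, 21, 22, 22, and 24 of the 43 were higher and 20, 15, 13, 15, and 16 lower (background 42.7%, 37%, 38.1%, 38.8%, and 38.6% higher and 33.5%, 34.2%, 33.3%, 34.6%, and 34.2% lower). By list, the numbers higher and lower on that scale were 2, 2, 2, 2, and 2 and 7, 5, 4, 5, and 6 of the 9 super elongation complex and ELL-associated genes. They were 7, 7, 8, 8, and 9 higher and 6, 4, 4, 3, and 3 lower of the 13 genes whose products bind 7SK or P-TEFb, and 5, 4, 5, 4, and 5 higher and 2, 3, 2, 3, and 3 lower of the 8 DSIF, NELF, and SPT6 genes. Of the 7 genes of TFIIS, elongin, and FACT, 7, 7, 6, 7, and 7 were higher and none lower as deposited, and they had spike-in scaled medians of -0.47, -0.95, -0.54, -0.7, and -0.41. The 6 PAF1 complex genes were all lower with spike-in scaling, with medians of -1.74, -2.01, -1.36, -1.92, and -1.49, and as deposited 5, 3, 3, 4, and 4 of them were lower and 1 was higher in each line. Of the other lists, 7, 8, 6, 7, and 7 of 9 super elongation complex and ELL-associated genes, 12, 13, 12, 12, and 10 of 13 7SK and P-TEFb binding genes, and 8, 8, 8, 8, and 8 of 8 DSIF, NELF, and SPT6 genes were lower with spike-in scaling. Of the 43 genes, only the BET reader BRD2 had an interaction past the threshold in all 4 MYCN lines with spike-in scaling (0.94, 1.27, 1.29, and 1.68).

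Across the 30 libraries, the genes whose as-deposited log2 levels were most like each member were found by Pearson's r, as a description, since libraries share lines, treatments, and depth. MEPCE was most like BCAR1 (r = 0.99) and C7orf49 (r = 0.989), whose means over the DMSO libraries were 43.6 and 44.2 FPKM and over the CYC065 libraries 7.83 and 6.56 FPKM. CCNT2 was most like XRCC5 (r = 0.98) and DYRK1A (r = 0.978), AFF1 like SHROOM3 (r = 0.969) and DOLK (r = 0.954), and CCNT1 like C2orf49 (r = 0.965) and SRFBP1 (r = 0.962). CDK9 came closest to EID2 (r = 0.931) and URB2 (r = 0.93) and HEXIM1 to NAA15 (r = 0.919) and OTUD4 (r = 0.912). The closest genes were less alike for ELL2, with SMAD3 (r = 0.869) and NDST1 (r = 0.863), for LARP7, with MRPL16 (r = 0.848) and CDC42EP1 (r = 0.845), and for AFF4, with QSER1 (r = 0.794).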

How the data were processed

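Poly(A) RNA of 30 samples of established cell lines was sequenced by the authors from strand-specific libraries, with ERCC spike-ins added by cell number. Reads were aligned by the authors with HISAT2 to hg19 (GRCh37), and Cufflinks with library type fr-firststrand gave the deposited FPKM, with no use of the spike-ins. The labels name a kit without strand selection where the methods name a directional one. The gene annotation is not given in the sources used here.

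From these values, log2(FPKM + 0.1) was fitted with limma 3.58.1 (R 4.3.3) over all 10 groups for the 11575 of 26228 genes that averaged 1 FPKM or more, with Benjamini-Hochberg adjustment over all of them and a threshold of 0.05. The pseudocount makes fold changes of low genes too small. Comparisons between lines used FPKM as deposited, and those of CYC065 used FPKM scaled per library to 55 of the 92 spike-ins, which averaged 1 FPKM or more. Table columns give line and treatment but number replicates differently from the labels, so columns were assigned to groups and named a, b, and c. No column of other samples (0) was present, no 2 libraries were identical, and the depth of each library is unknown, so no counting interval is given.

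The 9 genes and all lists were chosen with earlier results of these data known. All 9 genes are reported. Of 45 other elongation genes, up to 3 in each direction with the largest smallest change in all lines are named, and, for each member, the 2 genes of highest Pearson's r. BRD2 was named for its interaction after its values were seen. Some genes that these rules pick are not reported here. Positions are from the GRCh37 annotation and promoters from RefSeq. In simulated data for CYC065 in WT (11575 genes), 85 of 100 genes changed by 1 log2 unit and 60 of 100 changed by 0.5 were recovered, and 7 unchanged genes were called. The simulation had the spread of FPKM as deposited, independent noise for each gene, and few changed genes. It held no error of spike-in scaling, so these figures do not describe the spike-in scaled CYC065 comparisons. Alternatives were the other scale, median centring, pseudocounts of 0.01 and 1, filters of none and 5 FPKM, spike-ins of at least 50 FPKM, fits of only the groups compared, leaving out each library, and, added later, a replicate block and ratios without a pseudocount. Python 3.11.15 with pandas 2.3.3 was used for tables.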

Additional observations from a re-analysis of the deposited data

Results flagged for a closer look

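In 7 cases the difference in CYC065 response between a MYCN line and SH-EP passed the threshold, by limma's interaction term on spike-in scaled values. HEXIM1 had interactions of 0.92 (WT), 1.42 (T58A), 1.36 (S62A), and 1.72 (T58A S62A; SE 0.24 each, adjusted p = 0.0294, 0.00131, 0.000933, and 3.66e-05), all from a smaller decrease than in SH-EP. ELL2 had interactions of -0.78 in WT and -1.09 in S62A (adjusted p = 0.0418 and 0.01), from a larger decrease. CCNT1 had an interaction of 1.06 in T58A S62A (adjusted p = 0.00712), where its spike-in scaled level changed by -0.03 against -1.09 in SH-EP. The calls of HEXIM1 in WT, T58A, and S62A, of ELL2 in WT, and of CCNT1 in T58A S62A were each lost in some of the alternative fits given above. The -0.78 of ELL2 in WT stood beside a median interaction of -0.51 over all tested genes in that line. All 7 comparisons share the 6 SH-EP libraries, and sequencing pool and line cannot be told apart.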

How the results depend on the processing

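Values below are log2 differences or counts of the 9 genes past an adjusted p of 0.05 (limma), and the cause of each change was not tested. A pseudocount of 0.01 changed no call. At a filter of 5 FPKM AFF1 was not tested, and all other calls were kept. Signs changed mainly with the scale, since spike-in scaling shifts all genes. Sign changes are listed only where the value was past the threshold as reported, in the alternative, or in both. With FPKM as deposited, the sign turned for CCNT1 1.2, CCNT2 1.23, HEXIM1 0.04, and LARP7 0.07 in S62A (CYC065 change), for CCNT1 0.17, CCNT2 1.19, and ELL2 0.25 in SH-EP (CYC065 change), and for CCNT1 0.7 and CCNT2 1.07 in T58A (CYC065 change). The sign also turned for AFF4 0.08, CCNT1 1.05, and HEXIM1 0.01 in T58A S62A (CYC065 change), and for AFF4 0.27, CCNT1 1.18, and CCNT2 1.45 in WT (CYC065 change). With each library centred on its median, the sign turned for CCNT1 1.37, CCNT2 1.4, CDK9 0.13, HEXIM1 0.21, and LARP7 0.24 in S62A (CYC065 change), for CCNT1 0.31, CCNT2 1.33, ELL2 0.39, and LARP7 0.02 in SH-EP (CYC065 change), and for AFF4 0.05, CCNT1 0.88, CCNT2 1.26, ELL2 0.05, HEXIM1 0.01, and LARP7 0.01 in T58A (CYC065 change). The sign also turned for AFF4 0.23, CCNT1 1.21, ELL2 0, HEXIM1 0.16, and LARP7 0.01 in T58A S62A (CYC065 change), for AFF4 0.44, CCNT1 1.36, CCNT2 1.62, ELL2 0.06, and LARP7 0.07 in WT (CYC065 change), and for CDK9 0.34 in WT (interaction). With a pseudocount of 1, the sign turned for AFF1 0.92 in S62A (interaction). With spike-in scaled FPKM, the sign turned for AFF4 -1.85, CCNT1 -1.66, CCNT2 -1.57, CDK9 -1.96, ELL2 -1.92, LARP7 -1.86, and MEPCE -1.93 in S62A (against SH-EP), for AFF1 -0.6, CCNT1 -0.82, CCNT2 -0.79, CDK9 -0.86, HEXIM1 -0.86, LARP7 -0.61, and MEPCE -0.77 in T58A (against SH-EP), and for AFF1 -0.57, CCNT1 -0.54, CCNT2 -0.66, CDK9 -0.74, HEXIM1 -0.45, LARP7 -0.42, and MEPCE -0.45 in T58A S62A (against SH-EP). The sign also turned for CCNT1 -1.18, CCNT2 -1.21, CDK9 -0.98, LARP7 -0.79, and MEPCE -1.07 in WT (against SH-EP), and for AFF4 -0.3, CCNT1 -0.48, CCNT2 -0.36, and ELL2 -0.48 in S62A (against WT). The AFF1 value with a pseudocount of 1 had an adjusted p of 0.00455 (limma). Spike-in scaled AFF1 means were 1.62 in DMSO and 0.152 with CYC065 in S62A, and 8.7 and 1.26 in SH-EP. The added 1 was thus larger than the treated S62A level, and this value is not a measure of a smaller decrease in S62A.

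Counts that differed by over 1.5 times from those reported were as follows. With centring, 5 genes were past the threshold for CYC065 in T58A and 5 in WT, and for the interaction 5 in WT and 4 each in T58A, S62A, and T58A S62A. As deposited, 4 genes were past it for the interaction in each MYCN line. A pseudocount of 1 left 4 in S62A and 1 in WT for the interaction, and 2 each in T58A and T58A S62A against WT. The 21 spike-ins of at least 50 FPKM left 1 in S62A, 1 in T58A S62A, and 0 in WT for the interaction (limma, 2 at an unadjusted p under 0.05). A fit of only the groups compared left 4 in T58A and 2 in WT against SH-EP, 2 in S62A and 0 in T58A against WT (3 unadjusted), and 0 for the interaction in T58A (3 unadjusted). With no filter, 1 was left for the interaction in WT. Spike-in scaling gave 9 each in WT, T58A, and S62A against SH-EP and 4 in T58A S62A against WT.

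Leaving out 1 library gave counts of 8 to 8 in SH-EP, 7 to 8 in WT, 7 to 8 in T58A, 7 to 7 in S62A, and 7 to 7 in T58A S62A for CYC065. Against SH-EP the counts were 3 to 5 in WT, 2 to 2 in T58A, 2 to 3 in S62A, and 4 to 6 in T58A S62A, and against WT they were 0 to 2 in T58A (1 unadjusted where 0), 2 to 6 in S62A, and 1 to 2 in T58A S62A. For the interaction they were 0 to 2 in WT (2 or 3 at an unadjusted p under 0.05 where 0), 1 to 1 in T58A, 2 to 2 in S62A, and 2 to 2 in T58A S62A. The mean change of the ratios was -1.56 to -1.48 for AFF1 to AFF4, -0.4 to -0.35 for CCNT1 to CCNT2, 1.18 to 1.24 for CCNT1 to CDK9, and -0.06 to 0.01 for HEXIM1 to CDK9. The table numbers its columns within each group, but not as the labels do, so the planned block on the labels' numbers was not run. A fit with the table's own number as a replicate block, chosen after seeing the data, kept every call, with 2 genes past the threshold in T58A S62A against WT. It added CCNT1 in S62A (0.22) and T58A S62A (0.22) against WT and in S62A for the interaction (0.79). Deviations from the group means gave r of -0.126 to 0.161 between libraries with the same number, and 13 of 30 libraries were closest to their own number. Whether libraries with the same number shared a culture or batch cannot be decided from this, since the numbers are not those of the labels. Ratios without a pseudocount, also added, kept their direction and side of the threshold. Depth is unknown, and with 3 libraries a group standard errors were 0.17 to 0.23 for CYC065 and 0.24 to 0.32 for the interaction on the spike-in scale.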
